A study of Mus musculus with 5 samples.

Results

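The genes described here are 50 genes of innate sensing and NF-κB control: Toll-like receptors and their partners, cytosolic sensors, adaptors and kinases, and the subunits, inhibitors and kinases of NF-κB. They were taken by symbol from the Ensembl gene IDs of the count tables, where all 50 were found once each among 41388 IDs. Of these, 49 passed the filter on low counts and were tested; Tlr9 did not pass.

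RNA was sequenced from macrophages sorted from the aorta of C57BL/6 mice. The 3 adventitia libraries came from ApoE-/- mice on a high fat diet for 28 weeks, a group described with 6 mice, and held live (PI-) CD64+ cells of the outer layer of the whole aorta, from sinus to abdomen. The 2 intima libraries came from C57BL/6 mice with no ApoE change named, 5 animals pooled for each, and held PI- CD64+ CD11c+ MHC II+ cells of the thoracic aorta that remained once the adventitia had been stripped off. No diet is given for the intima mice, and how the 6 knockout mice were spread over the adventitia libraries is not stated, so the p-values given rest on variation among 5 libraries, some of it possibly technical. Layer, genotype, aortic segment and gate differed together between the groups and cannot be told apart, and a difference in diet could not be separated from them either.

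Library totals were 3941381, 10076142 and 10054377 counted reads in the adventitia, with 14970204 and 20806925 in the intima. Fewer genes had a read in the larger intima libraries, 17489 and 16374, against 23289, 25212 and 25738 in the adventitia. The 10 macrophage markers summed to 13661 to 17963 CPM (adventitia) and to 17793 and 14418 CPM (intima), with 0 called by edgeR, 2 at an unadjusted p under 0.05 and 0 by DESeq2 or limma voom. CPM here is the read count of a gene scaled to a common sequencing depth, with TMM factors between libraries. Endothelial markers were at 34.6 to 53.4 CPM in the adventitia against 870 and 978 CPM in the intima, and Pecam1, Vwf, Emcn and Esam, 4 of 11 tested, rose. Others of that list did not go along: Kdr had 3 reads and 1 read in the intima (log2 difference -3.43, unadjusted p = 0.026 and adjusted p = 0.162 in edgeR), Flt1 had 4 and 5 reads there (-2.73), and Cldn5 had 0 and 261 reads. Smooth muscle markers were at 15.1 to 51.9 against 345 and 96.2 CPM, and Tagln, 1 of 6 tested, rose. Fibroblast markers were at 750 to 1799 against 439 and 1437 CPM (Lum fell) and dendritic cell markers at 309 to 480 against 85.6 and 46.2 CPM (Cd209a fell). Monocyte markers were at 884 to 1574 against 462 and 993 CPM (Plac8 fell, Ace rose), and neutrophil markers at 94.7 to 128 against 86.1 and 107 CPM, with Ly6g, Retnlg and Ltf at 0 reads in both intima libraries. T and NK cell markers were at 7.14 to 8.75 against 129 and 90.3 CPM, with Nkg7, Ncr1 and Klrb1c at 0 reads there and 128 and 39.3 CPM of the sum from Cd4. B cell markers were at 283 to 782 against 1188 and 930 CPM, with Ms4a1 and Jchain at 0 reads there, and mast cell markers at 1.33 to 8.61 against 0.157 and 0 CPM. EdgeR called none of the neutrophil, T and NK, B or mast cell markers, of which 3, 1, 2 and 1 had an unadjusted p under 0.05. DESeq2 called 2, 1, 0 and 0 of these lists in turn, and limma voom 1, 0, 1 and 0. Of the 11 endothelial, 6 smooth muscle, 10 fibroblast, 10 dendritic cell and 9 monocyte markers tested, DESeq2 called 8, 2, 4, 4 and 4. Limma voom called 5, 2, 4, 4 and 3 of them in turn. Over all tested genes, 22.4% had an unadjusted p under 0.05 in edgeR. EdgeR called 0.671% of all tested genes, DESeq2 9.14% and limma voom 6.26%. The part of other cells in the values below was not tested. In bulk libraries, fewer cells of a type and less RNA per cell cannot be told apart.

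Toll-like receptors sit on the cell surface or in endosomes and bind microbial lipids, proteins and nucleic acids. Through the adaptors MyD88 or TRIF they signal to the IκB kinase complex. In the MyD88 branch, IRAK kinases and the ubiquitin ligase TRAF6 lie in between. The kinase complex marks IκB proteins for destruction and frees NF-κB dimers to enter the nucleus. NF-κB then induces several of its own inhibitors, among them IκBα and A20, so that the signal limits itself. Cytosolic NOD and NLR proteins sense bacterial fragments and damage, and inflammasomes activate caspase-1 and gasdermin D. In arterial macrophages the pathway is known for its part in the response to retained lipoproteins.

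The members lay on both sides of 0 in about equal number. None of the 49 tested reached an adjusted p of 0.05 in edgeR (quasi-likelihood, Benjamini-Hochberg), which 0.671% of all 13408 tested genes did, 0.522% higher and 0.149% lower in the intima. At an unadjusted p under 0.05 there were 8 members, 4 higher and 4 lower in the intima; that is 16.3% of the members, against 22.4% of all tested genes. DESeq2 called 4 members, with Tnip1 and Traf6 higher and Ikbke and Nlrp3 lower in the intima, where it called 9.14% of all genes (3.73% higher, 5.41% lower). Limma voom called Ikbke alone, lower, out of a background of 6.26% of all genes (1.6% higher, 4.66% lower). Adventitia and intima ranges were apart for 13 members (26.5%), against 40.9% of all tested genes, and a log2 difference of at least 1 in size was seen for 20 members (40.8%), against 56% of all tested genes.

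The log2 differences, intima minus adventitia as everywhere below, had a median of 0.06 over the 49 members and 0.14 over all tested genes, with 25 members above 0 and 24 below it. The median size of a difference was 0.59 for members and 1.19 for all tested genes, and the median standard error was 0.80 and 1.31. With upper-quartile scaling the median of all genes was -0.35 and that of the members -0.42, and with library size alone they were -0.09 and -0.15. A direction near 0 therefore turned with the scaling, as listed for each member in the closing section. For one gene, the smallest p that an exact two-sided permutation of 3 against 2 libraries allows is 0.1.

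**Figure D1:**
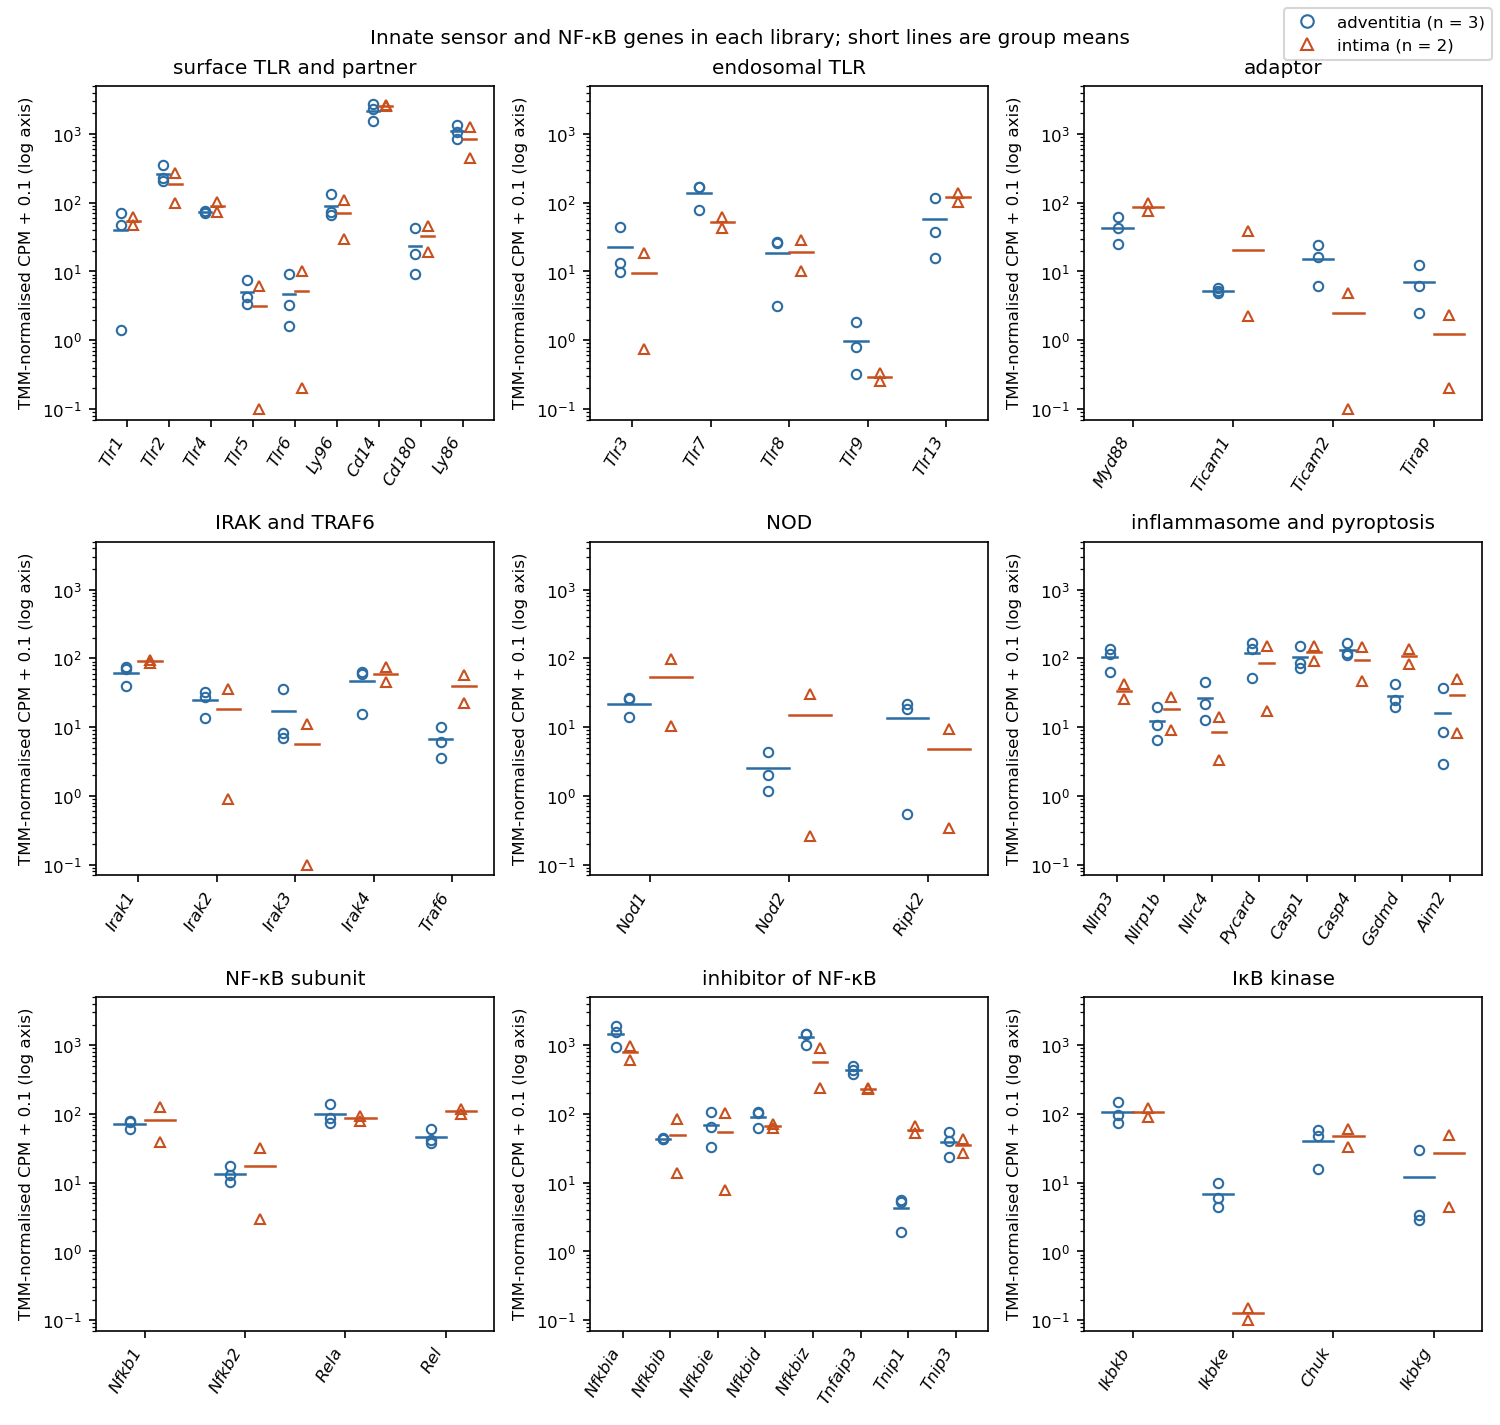
TMM-normalised CPM (log axis, 0.1 added) of the 50 genes in each library, in panels by role; circles are adventitia libraries (n = 3), triangles intima libraries (n = 2), short lines group means. Cd14 lies at 1531 CPM or more in every library, Tnip1 and Gsdmd are higher in both intima libraries than in any adventitia library, and Ikbke is at or near 0 in the intima.

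Levels between genes were compared per length, as the RPKM that the authors deposited. Cd14, the co-receptor that hands lipopolysaccharide to TLR4, led the group with a mean of 1466 RPKM in the adventitia and 1487 RPKM in the intima. Ly86, which encodes MD-1, the partner of the receptor RP105, followed at 1155 and 748 RPKM, and the NF-κB inhibitor gene Nfkbia at 1013 and 464 RPKM. Nfkbiz, an atypical nuclear IκB, was at 281 and 99.5 RPKM. The next in order, Ly96, Tlr2, Pycard and Casp1, had group means between 52.0 and 94.4 RPKM, and their libraries overlapped. At the other end, Tlr9, Ikbke, Tirap, Tlr5 and Nod2 had means under 3 RPKM in each group.

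**Figure D2:**
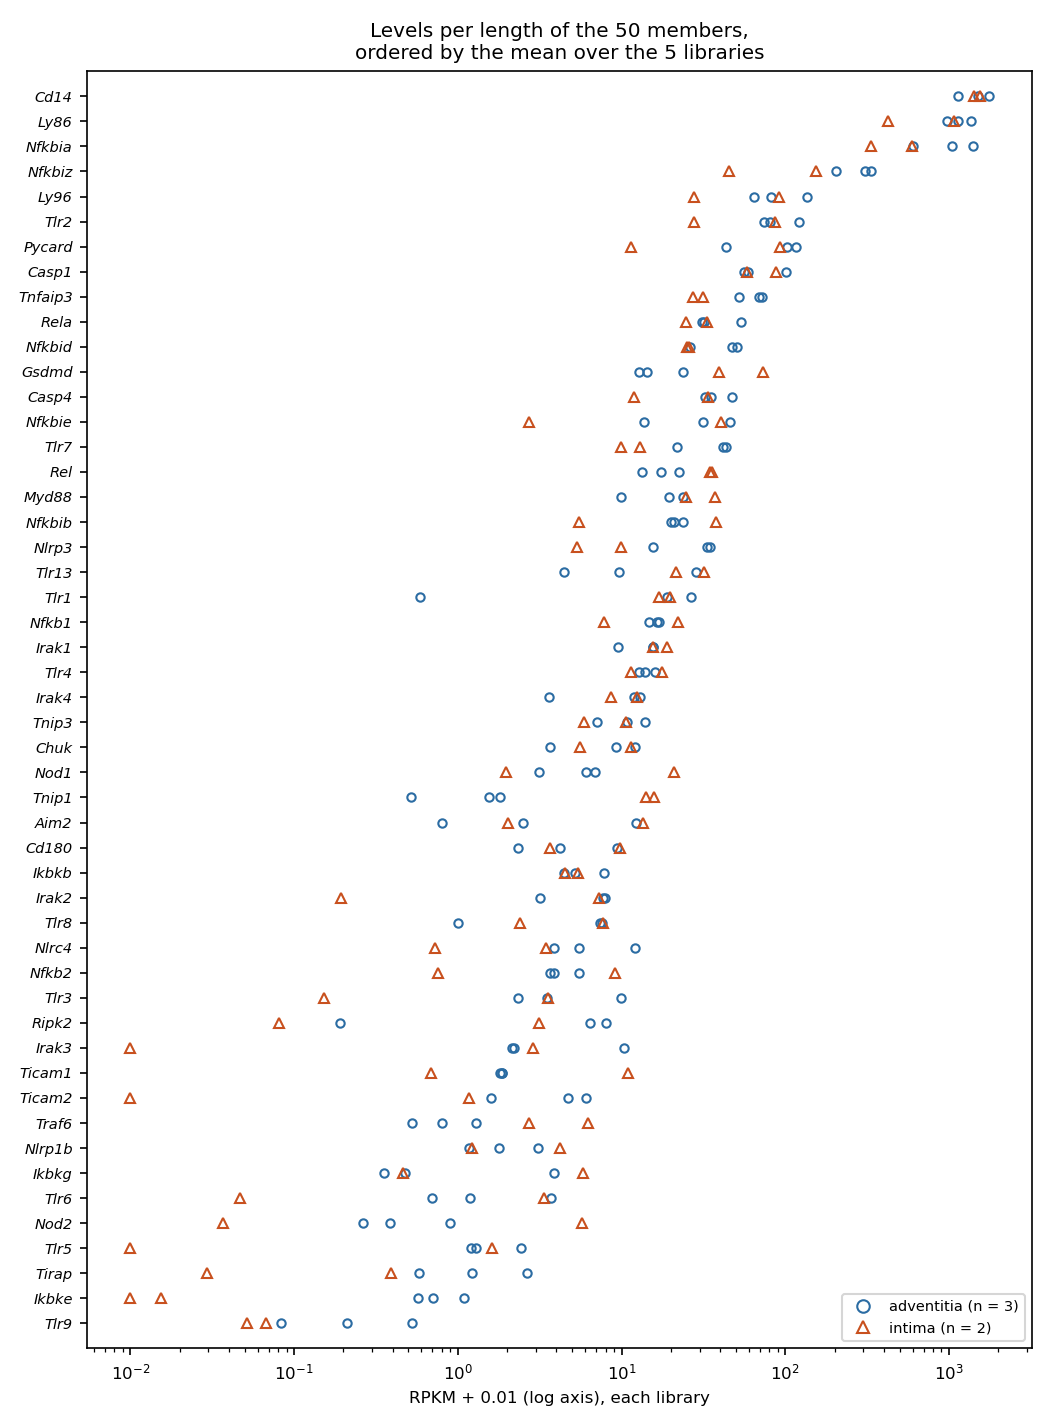
RPKM (log axis, 0.01 added) of the 50 genes in each library, ordered from bottom to top by the mean over the 5 libraries. Neighbouring genes overlap over most of the order; Cd14, Ly86 and Nfkbia lie above 300 RPKM in every library and Tlr9 lies under 1 RPKM in every library.

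Among the 9 surface receptors and partners no group ranges separated, where 40.9% of all tested genes had ranges apart. Cd14 was at 1531, 2277 and 2779 CPM in the adventitia, with 2621 and 2560 CPM in the intima. Both intima libraries lay inside the adventitia range, and the log2 difference was 0.24 with a 95% interval of -0.70 to 1.18 (n = 3 and 2). Tlr4, the lipopolysaccharide receptor, was the steadiest receptor of the adventitia, at 76.6, 74.0 and 71.5 CPM, with 74.1 and 103 CPM in the intima. Its difference of 0.26 had an interval of -0.88 to 1.4. Ly96, which encodes MD-2, the part of the TLR4 complex that binds lipopolysaccharide, was at 72.4, 133 and 66.5 against 110 and 29.8 CPM. Both Cd14 and Tlr4 turned to -0.24 with upper-quartile scaling.

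Tlr2 senses bacterial lipoproteins as a pair with TLR1 or TLR6. Its levels were 211, 353 and 226 CPM in the adventitia, with 98.0 and 274 CPM in the intima, so that intima library 1 lay below all others (log2 difference -0.50, interval -1.65 to 0.65). Tlr1 was at 1.31 CPM in adventitia library 1, from 6 reads, and between 47.1 and 71.1 CPM in the other 4 libraries. Tlr6, its neighbour on chromosome 5, had 2 reads in intima library 2 and 130 reads in intima library 1. Tlr5, the flagellin receptor, was low throughout, at 3.28 to 7.42 CPM in the adventitia, 6.04 CPM in intima library 1 and no read in intima library 2. Of the RP105 complex, which restrains TLR4 signalling in macrophages, Ly86 was at 839, 1085 and 1358 CPM in the adventitia, with 1253 and 444 CPM in the intima. Its receptor gene Cd180 stood far lower, at 8.97 to 42.6 CPM in the adventitia, with 19.3 and 46.4 CPM in the intima.

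The endosomal receptors for nucleic acids split by gene. Tlr7, a sensor of single-stranded RNA, was at 77.2, 169 and 172 CPM in the adventitia, with 62.4 and 42.2 CPM in the intima. Both intima libraries lay below all adventitia libraries, with a log2 difference of -1.42 (SE 0.57, interval -2.67 to -0.16) and an unadjusted p of 0.0306 that did not hold after adjustment (adjusted p = 0.174 in edgeR). Tlr13, which senses bacterial ribosomal RNA in mice, had the opposite sign: 104 and 137 CPM in the intima against 15.8, 37.9 and 118 CPM, a difference of 1.08 (interval -0.54 to 2.70) with overlapping groups. Tlr8 was at 3.06, 26.2 and 26.5 CPM in the adventitia, with 10.0 and 28.8 CPM in the intima. Tlr3, the sensor of double-stranded RNA, reached 43.7 CPM in adventitia library 3 and had 13 reads (0.655 CPM) in intima library 2. Tlr9, the DNA sensor that failed the filter, had 1 to 18 reads in a library, 3 of them in each intima library.

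Of the adaptors, Myd88, used by all Toll-like receptors but TLR3, was at 43.1, 24.6 and 61.3 CPM in the adventitia, with 74.9 and 100.1 CPM in the intima. The groups did not overlap, yet the difference of 1.02 had an interval that reached from -0.33 to 2.38 (adjusted p = 0.361 in edgeR). Tirap, which bridges MyD88 to TLR2 and TLR4, was at 2.41, 12.5 and 6.00 against 2.19 and 0.101 CPM. Ticam2, which bridges TRIF to TLR4, was at 15.97, 5.99 and 23.8 CPM against no read and 4.78 CPM. These 2 also had groups that did not overlap, with differences of -2.60 and -2.66 and adjusted p-values of 0.479 and 0.478 in edgeR. Leaving out 1 intima library moved Tirap to -6.10 (without replicate 1) or -1.58 (without replicate 2), and Ticam2 to -1.81 or -10.14, where no intima read remained, so that the last value is no measure of size. Ticam1, which encodes TRIF, was even in the adventitia at 4.81, 5.14 and 5.60 CPM and uneven in the intima at 38.6 and 2.11 CPM. Counts of Ticam2 are uncertain, since 21.3% of its exon bases are shared with Tmed7 on the same strand, and 11.3% of those of Myd88 are shared with Acaa1a on the other strand.

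Traf6, the ubiquitin ligase downstream of the IRAK kinases, lies on chromosome 2 (101678429 to 101701669 in GRCm38, plus strand). Its levels were 3.50, 5.99 and 10.1 CPM in the adventitia, with 57.8 and 22.4 CPM in the intima. The lower intima library was above the highest adventitia library, with a log2 difference of 2.61 (SE 1.09, interval 0.22 to 5.00, adjusted p = 0.184 in edgeR and 0.0457 in DESeq2). Without intima replicate 1 the difference was 1.63, and without intima replicate 2 it was 3.22. Irak1 was at 38.9, 70.0 and 74.0 against 86.2 and 94.3 CPM, again without overlap, a difference of 0.56 (interval -0.66 to 1.79). Irak4, the kinase that activates IRAK1, was at 15.5, 62.8 and 60.05 CPM in the adventitia, with 73.6 and 45.3 CPM in the intima. Irak3, which encodes the inhibitory IRAK-M, had no read in intima library 1 and 11.1 CPM in intima library 2, with 6.78, 36.3 and 8.11 CPM in the adventitia. Irak2 went the other way between the intima libraries, at 35.8 and 0.806 CPM.

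The NOD receptors, which sense fragments of bacterial cell wall, had their highest level in intima library 2. Nod1 was at 10.2 and 96.4 CPM in the intima libraries and 13.8 to 26.0 CPM in the adventitia. Nod2 was at 0.157 CPM (2 reads) and 29.9 CPM in the intima, set against 1.09 to 4.28 CPM in the adventitia. Their kinase Ripk2 was at 0.438 CPM (2 reads) in adventitia library 1, 21.6 and 18.1 CPM in the other adventitia libraries, against 0.235 and 9.16 CPM in the intima. With intima libraries this far apart, the differences of Nod1 and Nod2, 1.29 and 2.62, had intervals of -0.80 to 3.38 and -1.46 to 6.70.

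In the inflammasome group the sensor Nlrp3 and the pore-former Gsdmd had opposite signs. Nlrp3, which assembles an inflammasome in response to potassium loss and crystals, was at 116, 135 and 63.4 CPM in the adventitia, with 25.5 and 42.3 CPM in the intima. Its highest intima library lay below its lowest adventitia library, with a log2 difference of -1.63 (SE 0.61, interval -2.98 to -0.28, adjusted p = 0.152 in edgeR and 0.0461 in DESeq2). Gsdmd, whose cleaved product opens pores in the membrane, was at 19.5, 24.4 and 42.2 CPM in the adventitia, with 81.9 and 135 CPM in the intima. This gene, on chromosome 15 (75862339 to 75867404, plus strand), differed by 1.92 (SE 0.62, interval 0.55 to 3.29, adjusted p = 0.116 in edgeR, 0.0534 in DESeq2). Between them in the pathway, Casp1 was at 72.0, 84.7 and 152 CPM in the adventitia, with 154 and 91.1 CPM in the intima, a difference of 0.25 (interval -0.93 to 1.43) that was -0.22 with upper-quartile scaling.

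The adaptor ASC, encoded by Pycard, was at 52.5, 139 and 165 CPM in the adventitia, with 153 CPM in intima library 1 and 16.9 CPM in intima library 2. Casp4, the mouse caspase that binds cytosolic lipopolysaccharide, was at 113, 169 and 121 against 146 and 46.0 CPM. Both therefore had their lowest value in intima library 2. Nlrc4, which works with NAIP proteins on flagellin, was at 12.7, 44.6 and 21.3 against 3.21 and 13.8 CPM. Aim2, a sensor of cytosolic DNA, was among the most uneven adventitia genes, at 37.0, 8.37 and 2.80 CPM, and was at 8.23 and 49.3 CPM in the intima. Nlrp1b was at 6.34 to 19.5 CPM in the adventitia, with 8.94 and 27.7 CPM in the intima, with counts that are uncertain because close copies of the gene lie beside it.

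The NF-κB subunits were all read in every library. Rel, which encodes c-Rel, was at 41.8, 60.5 and 37.5 CPM in the adventitia, with 118 and 101 CPM in the intima. The groups did not overlap, and the log2 difference was 1.23 (SE 0.55, interval 0.03 to 2.43, unadjusted p = 0.0453, adjusted p = 0.212 in edgeR), and 0.75 with upper-quartile scaling. Rela, which encodes p65, was at 73.1, 140 and 87.4 against 78.9 and 94.9 CPM, a difference of -0.20 (interval -1.37 to 0.96). Nfkb1, the p105 precursor of p50, was at 61.0, 77.6 and 78.9 CPM in the adventitia, with 125 and 38.8 CPM in the intima, on either side of all adventitia libraries. Nfkb2, the p100 precursor of p52, was at 10.3, 17.4 and 12.7 against 2.90 and 31.6 CPM, with the order of the intima libraries reversed.

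Of the IκB kinase genes, Ikbke stood apart. It encodes IKKε, an inducible relative of the IκB kinases that also acts in interferon signalling, and lies on chromosome 1 (131254343 to 131279606, minus strand). It had 20, 63 and 98 reads in adventitia (4.38, 5.99 and 9.81 CPM) and 0 and 1 read in the intima. The intima libraries were larger, but fewer of all genes had a read in them. The reads gave an adventitia level 235 times that of the intima, with a 95% counting interval of 42.3 to 9300 that covers counting error only. The adjusted p was 0.113 in edgeR, 0.00125 in DESeq2 and 0.0212 in limma voom. It was 0.0449 in edgeR when only genes with at least 1 CPM in every library of a group were kept. Ikbke passed that filter, and the filter of the main fit, only through the adventitia libraries, where it was high. The value under that filter is therefore no separate support. The canonical kinase genes did not separate: Ikbkb, for IKKβ, was at 72.9, 95.3 and 150 against 121 and 90.5 CPM. Chuk, for IKKα, was at 15.97, 58.6 and 47.3 against 33.2 and 61.3 CPM. Ikbkg, for the scaffold NEMO, ranged from 2.80 to 29.9 CPM in the adventitia and was at 4.31 and 49.4 CPM in the intima.

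Of the 8 inhibitors of NF-κB, 2 had differences above 0 and 6 below it, and edgeR called none. Nfkbia, for IκBα, was at 1897, 1576 and 955 CPM in the adventitia, with 617 and 981 CPM in the intima, where only intima library 2 reached the adventitia range. Its log2 difference was -0.89 (SE 0.46, interval -1.90 to 0.13, adjusted p = 0.285 in edgeR). Tnfaip3, for the deubiquitinase A20, was at 431, 497 and 380 CPM against 232 and 237 CPM, with no overlap and the closest agreement of the intima libraries in this role. It differed by -0.90 (SE 0.41, unadjusted p = 0.0493, adjusted p = 0.221 in edgeR). Nfkbiz was at 1438, 1482 and 1024 CPM against 904 and 239 CPM, also without overlap, a difference of -1.20 (SE 0.56, adjusted p = 0.229 in edgeR). Without intima replicate 1, which leaves the lower library to stand for the intima, Nfkbiz differed by -2.59, and without intima replicate 2 by -0.45. Each of these fits has 1 intima library and so no measure of the intima spread.

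Tnip1 had the opposite sign to these 3. It encodes ABIN1, which binds A20 and ubiquitin chains and restrains NF-κB, and lies on chromosome 11 (54910785 to 54962917, minus strand). The gene stood at 5.47, 5.23 and 1.80 CPM in the adventitia, from 25, 55 and 18 reads, and at 65.8 and 52.3 CPM in the intima, from 840 and 1039 reads. Every intima value lay above every adventitia value, with group means of 4.17 ± 2.05 CPM (SD, n = 3) and 59.1 ± 9.57 CPM (SD, n = 2). The log2 difference was 3.83 (SE 0.98, interval 1.69 to 5.97), the lowest p of the members in edgeR (unadjusted p = 0.00227, adjusted p = 0.0875), with adjusted p = 3.72e-04 in DESeq2 and 0.0588 in limma voom. It passed in edgeR only when no filter on low counts was used (adjusted p = 0.0457). Its relative Tnip3, for ABIN3, was at 23.6, 40.5 and 54.1 CPM in the adventitia, with 27.0 and 43.7 CPM in the intima.

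The remaining IκB genes overlapped between groups. Nfkbib, for IκBβ, was at 44.6, 43.4 and 43.7 CPM in the adventitia, nearly equal, and at 14.0 and 85.5 CPM in the intima. Nfkbie, for IκBε, was at 33.3 to 107 CPM in the adventitia, with 7.68 and 102 CPM in the intima. Nfkbid, for the nuclear IκBNS, was at 102, 106 and 61.5 against 70.6 and 61.7 CPM. Of the exon bases of Nfkbib, 14.3% are shared with Ccer2 on the other strand.

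**Figure D3:**
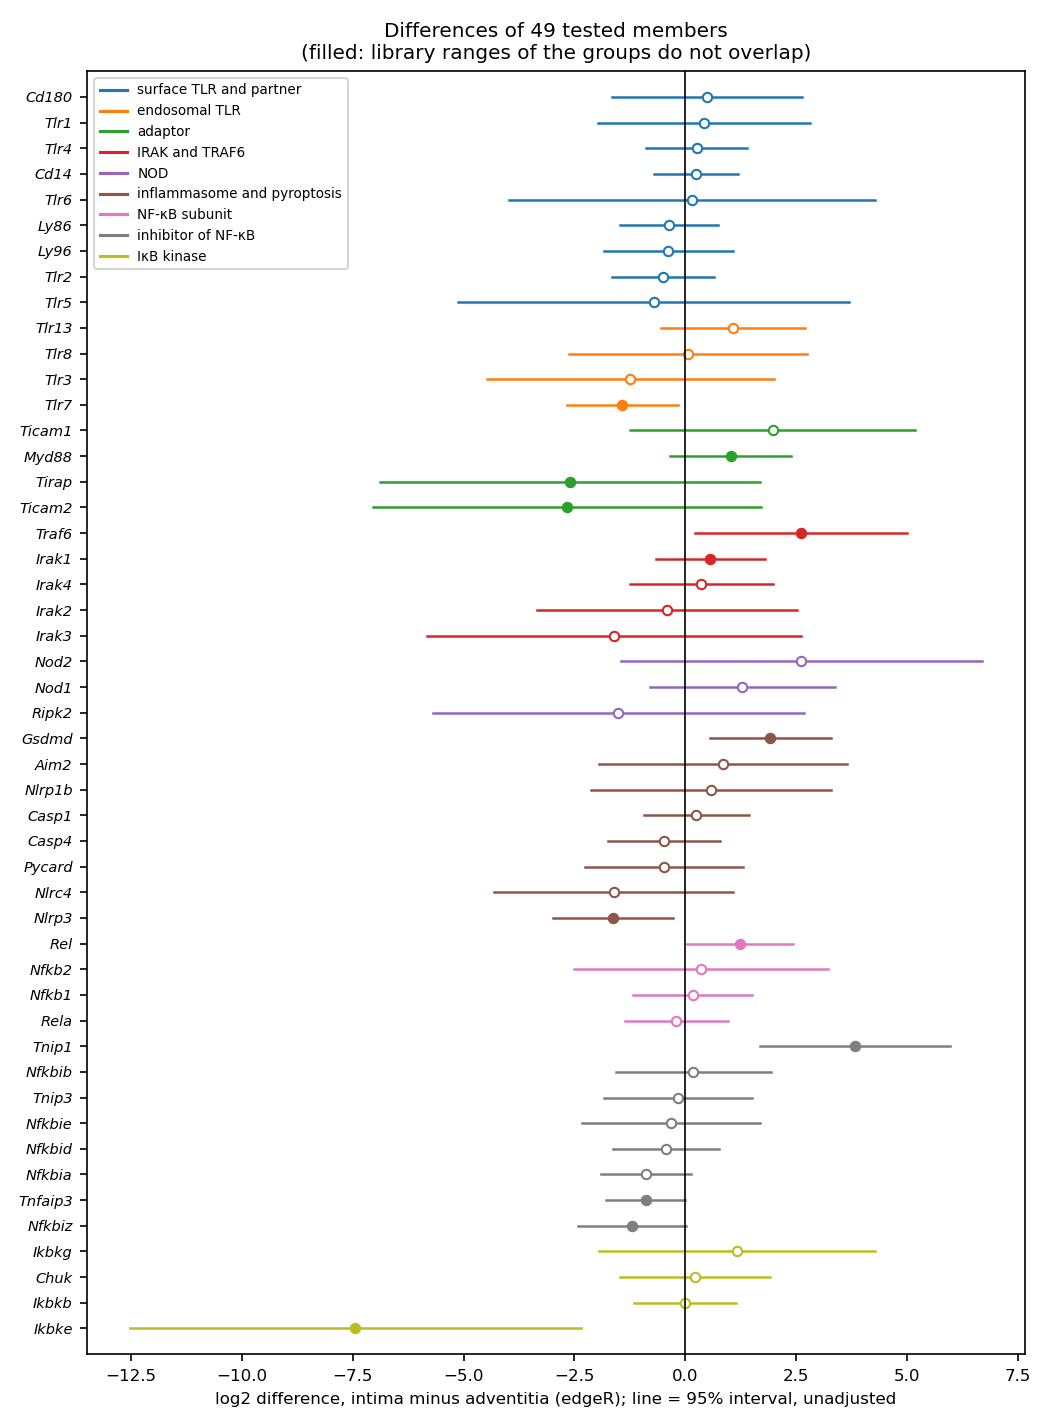
Log2 differences, intima minus adventitia, of the 49 tested genes from edgeR (3 against 2 libraries), coloured by role, with unadjusted 95% intervals; filled points have group ranges that do not overlap. Most intervals cross 0; those of Tnip1, Gsdmd, Traf6 and Rel lie above it and those of Ikbke, Nlrp3, Tlr7 and Tnfaip3 below it, and none of the 49 passed after adjustment.

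Promoter sequences of 4 members of the NF-κB feedback loop are shown because these genes had opposite signs in the data. They come from RefSeq (GRCm38.p6), which gave a window for 40 of the 50 members, and each runs 5′ to 3′ on the gene's strand up to the base before the transcription start. Tnfaip3 and Nfkbia had differences below 0 and Rel and Tnip1 above 0; edgeR called none of these 4, and DESeq2 called Tnip1. Capitals mark matches on either strand to the classical κB consensus, the degenerate site that NF-κB dimers bind, with overlapping matches joined. The Nfkbia window is chr12:55492648-55492897, the Rel window chr11:23770970-23771219 and the Tnip1 window chr11:54962941-54963190, all on the minus strand. The Tnfaip3 window was cut to chr10:19015411-19015547, minus strand, since the rest lies in an exon of another transcript.
Nfkbia: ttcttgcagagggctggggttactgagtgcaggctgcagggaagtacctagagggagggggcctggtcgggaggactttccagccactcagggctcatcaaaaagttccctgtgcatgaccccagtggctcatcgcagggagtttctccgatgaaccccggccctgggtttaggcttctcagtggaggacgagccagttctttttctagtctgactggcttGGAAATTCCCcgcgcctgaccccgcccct
Tnfaip3: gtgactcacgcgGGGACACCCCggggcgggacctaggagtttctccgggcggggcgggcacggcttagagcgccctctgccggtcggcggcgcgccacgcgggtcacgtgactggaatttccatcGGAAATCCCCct
Rel: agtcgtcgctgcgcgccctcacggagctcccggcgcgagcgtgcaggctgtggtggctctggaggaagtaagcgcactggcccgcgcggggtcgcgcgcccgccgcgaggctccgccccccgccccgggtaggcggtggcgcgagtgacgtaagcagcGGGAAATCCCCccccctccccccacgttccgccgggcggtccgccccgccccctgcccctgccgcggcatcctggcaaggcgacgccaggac
Tnip1: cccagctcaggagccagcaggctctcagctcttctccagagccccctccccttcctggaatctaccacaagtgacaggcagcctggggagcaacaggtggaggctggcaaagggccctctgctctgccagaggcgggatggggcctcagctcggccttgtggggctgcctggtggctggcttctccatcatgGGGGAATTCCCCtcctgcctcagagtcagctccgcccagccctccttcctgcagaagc

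The match nearest to the start began 29 bases before it in Nfkbia, 12 in Tnfaip3, 91 in Rel and 56 in Tnip1. Tnip1 held 3 matches that overlap over one symmetric stretch, Rel held 2 that overlap, and Tnfaip3 held a second, separate match 125 bases before the start. Among the 40 member genes with a window, 13 (32.5%) held a match within 250 bases upstream, against 8.23% of 27025 genes. Some genes have several windows. Per window the shares were 29.3% of 58 for members and 7.25% of 32851 for all genes. The other 9 were Casp4, Irak1, Nfkb2, Nfkbid, Nfkbie, Nlrp3, Tlr2, Tlr3 and Tnip3. The 13 genes did not share a direction: Irak1, Rel and Tnip1 lay higher in the intima with group ranges apart, Nlrp3 and Tnfaip3 lower with ranges apart, and the other 8 overlapped. Of all tested genes, 40.9% had ranges apart, 17.7% higher and 23.2% lower in the intima, so these counts set the 13 genes apart in no way. A match is a stretch of letters, and binding was not measured. This consensus took the place of narrower motifs after the windows had been read, so the shares with a match are a description and no test.

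The spread within each group is given as a description, with no test. The median log2 ratio between the intima libraries, regardless of sign and with 0.5 CPM added, was 1.48 for the tested members and 1.09 for all tested genes. The ratio was 8-fold or more for 14 members (28.6%), against 20.4% of all tested genes. Of these 14, Nod1, Nod2, Ripk2, Irak3, Ticam2, Ikbkg, Nfkb2 and Nfkbie were higher in intima library 2, and Tlr3, Tlr5, Tlr6, Ticam1, Irak2 and Pycard in intima library 1. In the adventitia the highest and lowest of 3 libraries were 8-fold apart for 4 members (8.16%), Aim2, Ikbkg, Ripk2 and Tlr1, against 11.4% of all tested genes. All 50 members had a read in each adventitia library, while Irak3, Ticam2 and Ikbke had none in intima library 1 and Tlr5 none in intima library 2. Over all genes too, fewer had a read in the intima libraries (17489 and 16374) than in the adventitia libraries (23289, 25212 and 25738). For the members at 8-fold or more, the mean of 2 intima libraries describes neither of them.

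**Figure D4:**
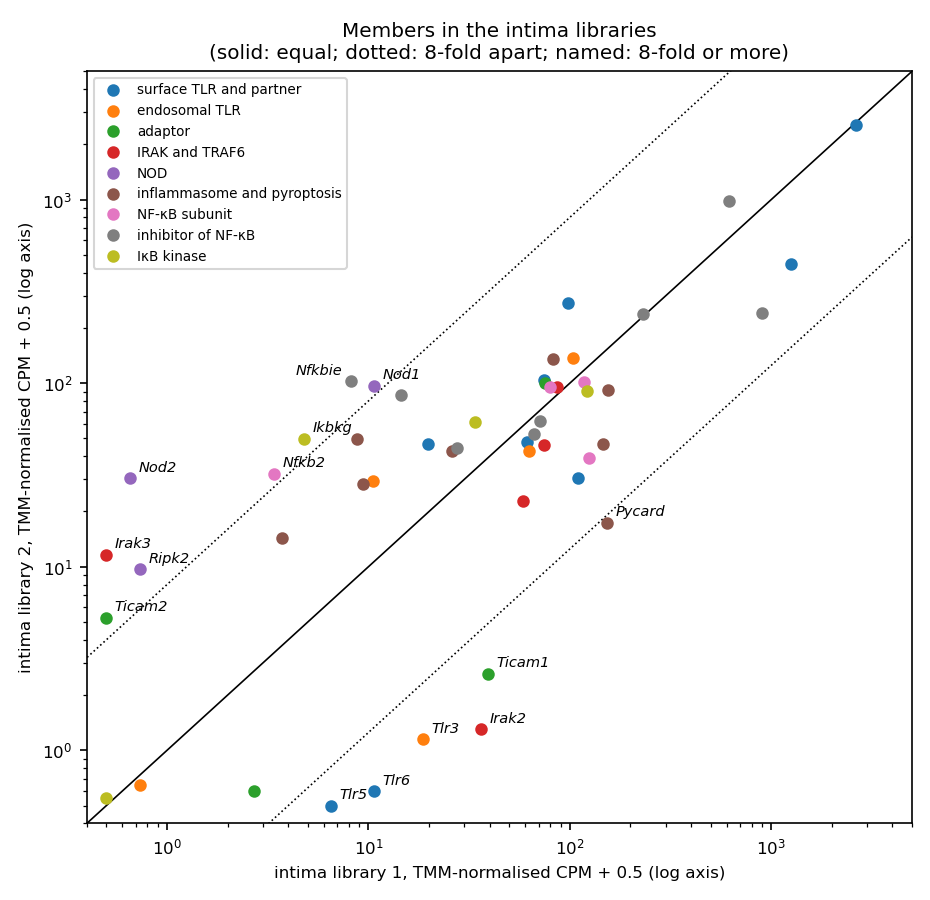
Intima library 1 against intima library 2 in TMM-normalised CPM (log axes, 0.5 added), 1 point per member, coloured by role; the solid line marks equal levels and the dotted lines an 8-fold difference. The 14 named genes lie 8-fold or more apart, 8 of them above the line and 6 below it, while Cd14 and Tnfaip3 lie close to it.

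Other genes of the pathway were counted over 8 further lists, with 119 genes found and 112 tested. In these edgeR called 0, against 24 at an unadjusted p under 0.05 (21.4% of them, 11 higher and 13 lower in the intima), 13 in DESeq2 (4 higher and 9 lower) and 10 in limma voom. Of all tested genes, 22.4% had an unadjusted p under 0.05 (8.16% higher and 14.3% lower), DESeq2 called 9.14% and limma voom 6.26%, so the unadjusted share of these lists was near that of all genes. Their median log2 difference was -0.05. By list, the tested genes at an unadjusted p under 0.05 were 2 of 10 for receptor biogenesis and trafficking, 2 of 17 for MyD88 and TRIF branch kinases and ligases, 0 of 12 for linear ubiquitin and deubiquitination, and 3 of 11 for non-canonical NF-κB genes. They were 4 of 11 for brakes on Toll-like receptor signalling, 3 of 18 for inflammasome genes beyond the members, 2 of 11 for cytosolic nucleic acid sensors and 8 of 23 for NF-κB target cytokines and effectors.

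The most abundant gene of each list, per length, did not pass. Cd36, a scavenger receptor that pairs with TLR2, was at 503 to 803 CPM in the adventitia, with 795 and 883 CPM in the intima. Irf5, a transcription factor activated through MyD88, was at 94.5, 106 and 112 against 128 and 363 CPM, without overlap (difference 1.23, SE 0.51, adjusted p = 0.178 in edgeR). Zfp36, whose product degrades cytokine messages, was at 2636, 3344 and 3311 against 3192 and 6025 CPM. Il1b, the cytokine that caspase-1 matures, was at 324, 867 and 506 CPM against 508 and 606 CPM, a difference of -0.02 (SE 0.47). Ccl4, a chemokine, was at 3605, 5164 and 3586 against 7088 and 5750 CPM, without overlap (0.64, SE 0.44). Tax1bp1, an A20 partner, was at 122 to 188 against 151 and 317 CPM. Tnfrsf1a, a receptor for TNF, was at 56.7 to 113 against 154 and 83.4 CPM, and Ifi204 at 131 to 197 against 156 and 20.6 CPM.

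The following genes of these lists were picked after their values were seen. Birc3, for the ubiquitin ligase cIAP2, a partner of TRAF2, was at 254, 245 and 157 CPM in the adventitia, with 39.0 and 36.3 CPM in the intima. Its groups stood well apart, with a difference of -2.54 (SE 0.51, adjusted p = 0.0549 in edgeR). Bcl3, a nuclear IκB protein that works with p50 and p52, was at 8.97, 19.4 and 13.6 CPM against 4 reads and 1 read in the intima libraries. Cgas, the cytosolic DNA sensor, was at 4.81, 29.4 and 17.3 CPM against 3 reads and 1 read. Both thus shared with Ikbke a level near 0 in the intima, where fewer of all genes had a read. Tlr12, a mouse receptor for a profilin of Toxoplasma, was at 0.476 to 1.00 CPM in the adventitia, with 22.6 and 14.3 CPM in the intima (4.67, SE 1.59, adjusted p = 0.124 in edgeR). Tnf was at 177, 160 and 131 against 252 and 432 CPM (1.13, SE 0.43, adjusted p = 0.156 in edgeR), while Cxcl2 was at 5962, 5875 and 4411 against 2820 and 2754 CPM (-0.96, SE 0.44, adjusted p = 0.227 in edgeR). Ccl2, of the same target list, was at 4371, 5054 and 4165 against 1273 and 733 CPM (-2.18, SE 0.48, adjusted p = 0.0783 in edgeR). Vcam1 was at 73.7, 143 and 99.2 against 407 and 391 CPM (1.92, SE 0.44, adjusted p = 0.0868 in edgeR). Products induced by NF-κB thus had differences of both signs. Groups were apart for Tnf, Cxcl2, Ccl2 and Vcam1, as they were for 40.9% of all tested genes.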

How the data were processed

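Poly-A RNA from sorted cells was amplified with the SMARTer Ultra Low kit and 12 PCR cycles and read as 50-base single reads, per the labels' protocols. The deposited files give counts, CPM and RPKM per Ensembl gene on GRCm38, per the file headers. STAR 2.0.4b and featureCounts 1.4.5, with Subread, are named in the submitters' processing notes; the annotation release and strand setting are not given in the sources used here, so reads where genes overlap may belong to either gene. The CPM and RPKM that the authors deposited equal those from the deposited counts (0 mismatches at a tolerance of 1e-06).

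Symbols were matched for 40254 of 41388 IDs. Counts were tested with edgeR 4.0.16 in R 4.3.3 (glmQLFit and glmQLFTest; filterByExpr with a minimum count of 10 and total of 15; TMM; no covariates; Benjamini-Hochberg over all tested genes, threshold 0.05). Standard errors are the difference divided by the square root of F, and intervals are at 95%. A floor of 3 reads is 0.144 to 0.761 CPM; intervals on reads cover counting error only. DESeq2 1.42.0, limma 3.58.1 (voom), other scalings and filters, thinning, a replicate block and each library left out were alternatives. On simulated counts (12438 genes tested) the share of changed genes that the test found was 6% for a 4-fold change and 36% for 16-fold. It rose to 60% for 64-fold and 72% for 256-fold (50 genes for each size), and 8 of 95 calls were false. The changed genes were few and drawn at random over all levels. The members had a smaller median standard error than all tested genes (0.80 against 1.31). These shares therefore do not give the share that would be found among the members. Figures used matplotlib 3.10.9.

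The members and lists were chosen with earlier results of these data known. All members are given. Those with group ranges apart and a difference of at least 1, and the highest and lowest of each role, are given per library. Exceptions are Tlr5, Tlr9, Nod1, Nod2 and Nlrp1b, for which the adventitia is given as a range.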

Additional observations from a re-analysis of the deposited data

How the results depend on the processing

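Of the members, 0 were called as reported, 4 (8.16%) with DESeq2 and 1 (Ikbke, 2.04%) with limma voom. These fits called 0.671%, 9.14% and 6.26% of all tested genes in turn. Using no filter on low counts gave 1 member (Tnip1), and the 1 CPM filter gave 1 (Ikbke, which passed it through the adventitia alone). With an adventitia library left out there were 0. The set of tested genes changed with the filter, so the counts below are not shares. Of all genes, 90 were called, 70 higher and 20 lower. Upper-quartile scaling gave 75 (46 and 29), scaling by library size alone 93 (59 and 34), DESeq2 1225 (500 and 725), limma voom 839 (214 and 625), no filter 386 (312 and 74), the 1 CPM filter 396 (135 and 261), thinning 75 (47 and 28), and leaving out a library 10 to 389. The cause was not tested. Where 1 intima library was left, it was assumed to vary like the adventitia. Tlr5 had no read in intima library 2, so its value of -8.86 given below, without intima replicate 1, is no measure of size.

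Member differences that changed sign were, with upper-quartile scaling, Tlr1 -0.018, Tlr4 -0.24, Tlr6 -0.28, Tlr8 -0.42, Cd14 -0.24, Irak4 -0.090, Casp1 -0.22, Nfkb1 -0.29, Nfkb2 -0.15, Nfkbib -0.34 and Chuk -0.26. With library size alone they were Tlr6 -0.15, Tlr8 -0.088, Nfkb1 -0.10 and Nfkbib -0.0039. DESeq2 gave Tlr8 -0.080 and Nfkbib -0.025, and limma voom Tlr6 -1.59, Nfkb1 -0.19, Nfkb2 -0.19 and Nfkbib -0.14. No filter gave Tnip3 4.8e-05 and Ikbkb 0.18, and the 1 CPM filter Tlr8 -0.10 and Nfkbib -0.039. Thinning gave Tlr4 -0.20, Tlr6 -0.029, Tlr8 -0.24, Cd14 -0.13, Casp1 -0.14, Nfkb1 -0.17, Nfkb2 -0.18, Nfkbib -0.34 and Chuk -0.22. With a library left out, signs turned for Tlr1 (-0.20 to 1.09), Tlr5 (-8.86 to 0.37), Tlr6 (-5.51 to 1.21), Tlr8 (-0.81 to 0.48), Cd14 (-0.028 to 0.41), Cd180 (-0.19 to 1.23), Ly86 (-1.44 to 0.28), Ly96 (-1.74 to 0.36), Ticam1 (-1.42 to 2.98), Irak2 (-5.03 to 0.65), Irak4 (-0.17 to 0.76), Nod1 (-1.01 to 2.01), Nod2 (-3.78 to 3.46), Nlrp1b (-0.37 to 1.06), Pycard (-2.95 to 0.45), Casp1 (-0.31 to 0.66), Casp4 (-1.68 to 0.21), Aim2 (-0.85 to 2.30), Nfkb1 (-1.04 to 0.87), Nfkb2 (-2.12 to 1.09), Rela (-0.45 to 0.071), Nfkbib (-1.56 to 0.83), Nfkbie (-3.07 to 0.44), Tnip3 (-0.48 to 0.10), Ikbkb (-0.37 to 0.29), Ikbkg (-1.39 to 3.09) and Chuk (-0.23 to 0.53).

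Replicate numbers are shared between groups of different mice. The deviations of same-numbered libraries from their group means had correlations of 0.0329 and 6.29e-04 over 13408 genes. With 2 intima libraries, both values rest on the same contrast between those libraries, so they are not separate checks. A replicate block gave 183 called genes (133 higher and 50 lower) and 0 members, with Tlr6 -1.70, Nfkb2 -0.47, Nfkbib -0.34, Tnip3 0.15 and Ikbkb 0.32 changing sign.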
